A study of Mus musculus with 6 samples.

Results

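Cells that meet endoplasmic reticulum (ER) stress, amino acid shortage or other insults change their gene expression through a small set of factors, and 10 genes of that response were measured in cultured muscle-derived stem/progenitor cells (MDSPCs). The genes were taken by name: Atf4, Ddit3, Atf5, Trib3, Chac1, Asns and Nupr1, which stand for the integrated stress response, and Hspa5, Xbp1 and Herpud1, which stand for the unfolded protein response of the ER. They are 10 of the 21485 genes that all 6 deposited matrices share, and all 10 passed the filter on low counts in the comparison of old with young populations. The list uses no threshold on a measured value, but it was drawn up with earlier results of these data known. These cells come from digested mouse muscle and are the late-attaching fraction left after repeated transfer of unattached cells to new collagen-coated flasks. The 6 samples, 3 young and 3 old populations, were kept in proliferation medium, and their single cells were sequenced from the 3′ ends of transcripts with droplet barcodes. The labels give no age, sex, strain, genotype or treatment for either group, and they do not say how many mice a population came from. Each population is 1 replicate.

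The 2 arms of the response work in different ways. In the integrated stress response, kinases phosphorylate the translation initiation factor eIF2, most protein synthesis slows, and the mRNA of Atf4 is translated more, so that ATF4 protein switches on genes of amino acid supply and, with stronger stress, Ddit3 (CHOP). In the unfolded protein response, sensors in the ER membrane (PERK, IRE1 and ATF6) respond to misfolded proteins, PERK is also an eIF2 kinase, IRE1 splices Xbp1 mRNA, and the factors made raise chaperones such as Hspa5 (BiP). Much of this control acts on translation and splicing, which counts of 3′ ends do not show. In muscle precursors eIF2 phosphorylation is known to take part in the quiescence of satellite cells.

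ATF4 and CHOP bind a composite C/EBP-ATF element, and the ER factors bind ER stress elements, so the promoters of the 10 genes were searched for these letters. RefSeq promoters of GRCm38.p6 (250 bases before to 50 after a start site) were found for 10 of 10 genes, with 2 for Atf5. TGATGNAA, the composite element, was present on either strand in the promoters of 5 of the 10 genes (Trib3, Chac1, Asns, Nupr1 and Herpud1), compared with 3.97% of all 32851 promoters of 300 bases. The ER stress element, CCAAT and CCACG 9 bases apart, was found in 1 member promoter, that of Hspa5, compared with 0.119% of all promoters. ER stress element II, ATTGG and CCACG 1 base apart, was found in that of Herpud1, compared with 0.0365% of all. TGACGTGG, bound by XBP1 and ATF6, was found in 0 member promoters and in 0.676% of all. Every motif was searched on both strands, and the matches in these promoters did not overlap. A match describes letters, not a bound site. The stretches that hold the matches are shown, on the strand of the gene, because they set Herpud1, with an element of each arm, beside the targets of each arm; capitals mark the matched letters.
Trib3: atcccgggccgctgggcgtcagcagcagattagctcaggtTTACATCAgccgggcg
Chac1: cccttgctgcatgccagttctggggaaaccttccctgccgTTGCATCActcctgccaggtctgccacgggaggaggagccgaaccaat
Asns: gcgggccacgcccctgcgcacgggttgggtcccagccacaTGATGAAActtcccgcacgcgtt
Nupr1: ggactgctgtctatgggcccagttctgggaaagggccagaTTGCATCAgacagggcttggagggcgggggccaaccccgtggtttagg
Herpud1: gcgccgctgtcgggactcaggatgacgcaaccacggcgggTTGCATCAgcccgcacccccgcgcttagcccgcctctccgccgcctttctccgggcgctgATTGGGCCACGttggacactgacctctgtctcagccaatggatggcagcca
Hspa5: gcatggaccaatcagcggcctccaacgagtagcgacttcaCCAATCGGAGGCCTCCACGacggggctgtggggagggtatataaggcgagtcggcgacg

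The gene bodies (GENCODE vM21, GRCm38) are at chr15:80255184-80257541 for Atf4, chr10:127290774-127296288 for Ddit3, chr7:44812256-44816658 for Atf5 and chr11:5520659-5525893 for Xbp1. The printed stretches lie at chr2:152344031-152344086, minus strand, for Trib3, chr2:119351009-119351096, plus strand, for Chac1, and chr6:7693210-7693272, minus strand, for Asns. Those of Nupr1, Herpud1 and Hspa5 lie at chr7:126625533-126625620, minus strand, at chr8:94386277-94386427, plus strand, and at chr2:34771985-34772083, plus strand. The match of Trib3 starts 15 bases after the RefSeq start site, and the matches of the other 5 genes lie before theirs.

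After filtering, 61657 of 62849 barcodes were kept, between 8674 and 12533 cells per population, with 133608357 to 193379367 unique molecular identifiers (UMIs, tags that let each captured RNA molecule be counted once). Median depth per cell ran from 12821 UMIs in old replicate 3 to 19688 in old replicate 2. Young replicate 1 and old replicate 1 were counted on a shorter gene list than the other 4 populations, and any pair of populations shared 23 to 35 barcodes, at most 0.369% of the smaller. The share of cells in S or G2/M phase, after thinning each cell to 5000 UMIs, was 51.2%, 59.3% and 80.5% for young replicates, against 67.1%, 37.2% and 57.6% for old ones. MDSPCs have no single defining gene. The 8 myogenic markers (among them Myod1 and Des) summed to 269, 1609 and 234 CPM in young replicates, against 266, 1080 and 2583 CPM in old ones. Not every population carried each of them. Myf5 stood at 0.007 CPM in young replicate 1, and Pax7 at 0.026 CPM in young replicate 3, where Des gave 2.69 CPM. Sdc4 alone gave 105, 158 and 90.5 CPM in young replicates, against 120, 107 and 152 CPM in old ones. Markers of immune cells summed to at most 7.85 CPM and those of Schwann cells to at most 1.9 CPM, with Tyrobp at 0 in all 6 populations. Fibro-adipogenic markers summed to between 206 and 434 CPM. Of these Gsn gave 149 to 317 CPM and Col3a1 13.3 to 132 CPM, and Smoc2 reached 103 CPM in young replicate 2. Pdgfra reached at most 1.97 CPM, Dcn at most 1.49 CPM and Lum at most 0.005 CPM. Mural cell markers ran from 36.2 CPM in old replicate 1 to 709 CPM in young replicate 2 and 1485 CPM in old replicate 3. Acta2 alone gave 690 CPM in young replicate 2. It gave 1477 CPM in old replicate 3, where Rgs5 and Myh11 stood at 0.23 and 0.115 CPM. The part of these markers in the results was not tested. Endothelial markers reached at most 1.6 CPM in 5 populations and 59.3 CPM in young replicate 2, where Tek alone gave 58.9 CPM. The 10 immediate early and heat shock genes summed to 3272 CPM in young replicate 2, of which Jun alone gave 2963 CPM, and to between 341 and 473 CPM in the others.

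The levels of the 10 genes in the old populations were compared with those in the young ones, following the study's design. None of the 10 passed the test of a change between old and young populations, and for each of them the outer populations of 1 group lay further apart than the group means. Levels are CPM, the UMIs of a gene relative to all UMIs of the population, scaled by TMM, and values are listed in the order of replicates 1, 2 and 3. Since the counts are summed over cells, more cells with a transcript and more transcript per cell cannot be told apart in CPM, so the share of cells with at least 1 UMI among cells thinned to 5000 UMIs is given beside it. No cell class in these cultures is known to lack these genes, so a share of cells that free RNA could give was not measured.

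Among the transcription factors, Atf4, which drives the integrated stress response, measured 113, 69.1 and 93.7 CPM in young replicates, against 89.3, 98.7 and 96.7 CPM in old ones. Young replicate 2 was lowest, young replicate 1 highest, and the groups overlapped. Its log2 fold change, old over young, was 0.06 (standard error, SE, 0.24, adjusted p = 1.0, edgeR). Ddit3 encodes CHOP, a factor that promotes cell death when stress persists. It measured 62.3, 11.01 and 16.3 CPM in young replicates, against 26.7, 29.9 and 17.8 CPM in old ones, so the young group held both the highest and the lowest value. The share of cells with a Ddit3 UMI was 17.4% in young replicate 1 (95% Wilson interval 16.6% to 18.2%, counting error only) and 5.09% in young replicate 2. Atf5, a related factor that is also translated under stress, measured 44.5, 19.6 and 19.4 CPM in young replicates, against 29.1, 59.99 and 29.6 CPM in old ones, highest in old replicate 2.

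Of the target genes, Nupr1 varied most. Nupr1, a small stress-induced chromatin protein, measured 69.1, 25.5 and 16.3 CPM in young replicates, against 22.9, 219 and 81.8 CPM in old ones, a 13.4-fold range. Old replicate 2 was highest and old replicate 1 lay within the young values, so the groups overlapped. The log2 fold change was 1.62 (SE 1.17, adjusted p = 1.0), and it ran from 0.64 without young replicate 3 to 2.85 without old replicate 1; of the 6 populations only old replicate 3 moved it by less than 1.5 times when left out. In old replicate 2, 49.8% of cells had a Nupr1 UMI, compared with 7.21% to 23.5% in the other 5 populations. Trib3, a pseudokinase that restrains ATF4, measured 5.77, 2.34 and 3.88 CPM in young replicates, against 3.45, 5.94 and 2.59 CPM in old ones. Chac1, which breaks down glutathione, measured 27.3, 14.0 and 10.6 CPM in young replicates, against 8.50, 16.1 and 6.80 CPM in old ones, highest in young replicate 1. Asns, which makes asparagine, had a narrow range, with 66.7, 49.5 and 62.5 CPM in young replicates, against 66.5, 56.4 and 45.1 CPM in old ones.

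Of the ER genes, Hspa5, the main ER chaperone of the HSP70 family, had the narrowest range of the 10, 1.27-fold, with 255, 288 and 296 CPM in young replicates, against 233, 278 and 241 CPM in old ones. Xbp1, a factor of the unfolded protein response, measured 28.2, 29.7 and 26.0 CPM in young replicates, against 29.3, 47.0 and 38.1 CPM in old ones. By share of cells Xbp1 was the single member whose groups did not overlap, at 11.3%, 13.6% and 13.0% against 14.7%, 21.3% and 16.6%; 1 of 10 members stands beside 5.77% of all 15064 genes tested. The means were 12.7% ± 1.22 and 17.6% ± 3.38 (SD, n = 3 each; two-sided exact permutation test, p = 0.1, the smallest that 3 against 3 allows, adjusted over the 10 genes 0.75). By CPM the groups of Xbp1 overlapped, and its log2 fold change was 0.43 (SE 0.23, adjusted p = 1.0), or 0.28 without old replicate 2 and up to 0.61 without another population. Xbp1 lies on chromosome 11, whose genes as a whole were higher in old replicate 2, by a median of 0.27 on the log2 scale. With each chromosome's median shift removed, the old-minus-young difference of Xbp1 on the log2 scale was 0.28 in place of 0.42. Asns lies on chromosome 6, whose median shift was 0.25 in young replicate 3, and its difference was -0.01 in place of -0.09. Herpud1, an ER membrane protein that helps to degrade misfolded proteins, measured 29.4, 35.5 and 28.0 CPM in young replicates, against 24.7, 52.4 and 66.1 CPM in old ones, with old replicates 2 and 3 above all others.

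**Figure D1:**
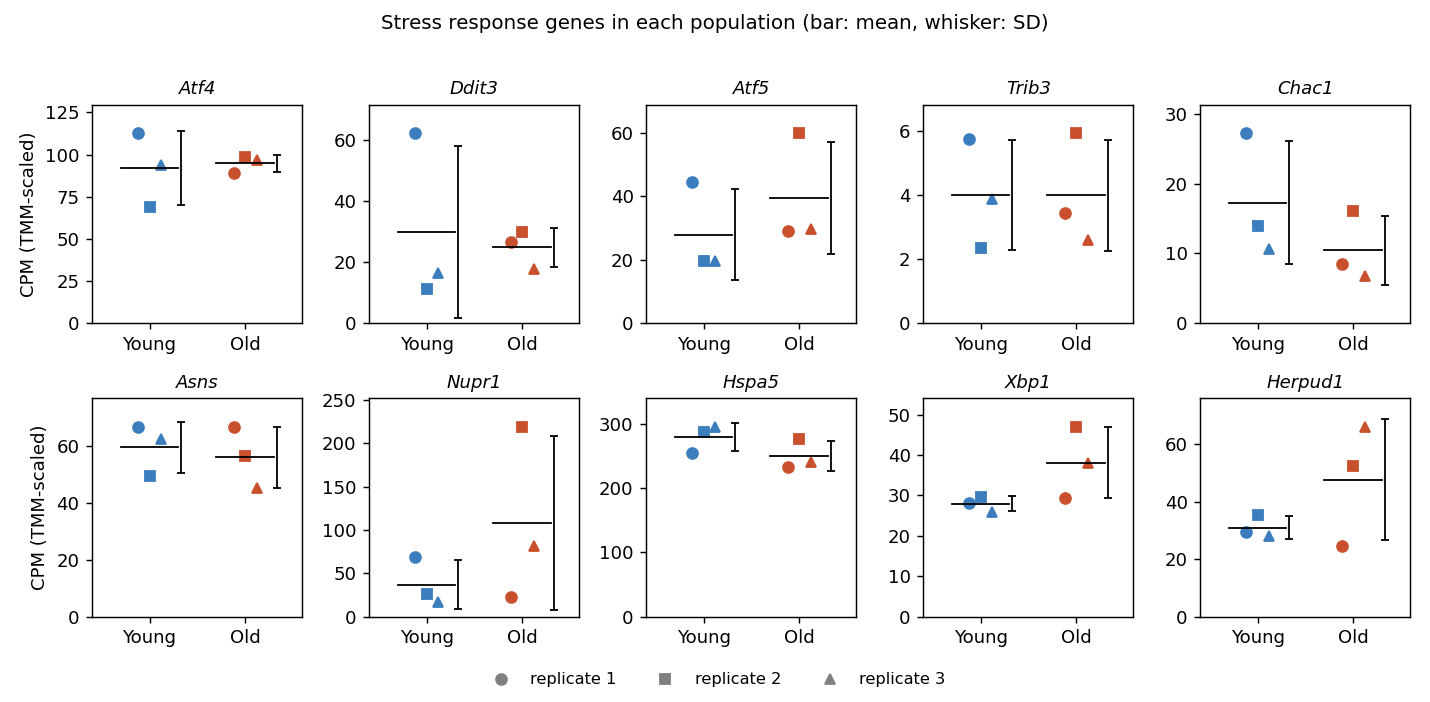
TMM-scaled CPM of the 10 genes (vertical axis, from 0) in the young and old populations, with the mean as a bar and the SD as a whisker (n = 3 each). The groups overlap in every panel; Ddit3 is spread by young replicate 1 at 62.3 CPM and Nupr1 by old replicate 2 at 219 CPM.

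In the test across all genes, 0 of the 10 members were called at an adjusted p under 0.05, and 1 of 15064 genes, 0.00664%, was (edgeR quasi-likelihood test, n = 3 against 3). That gene was Cyba, an NADPH oxidase subunit named here after its value was seen. At an unadjusted p under 0.05 there were 560 genes and 0 members. DESeq2 called 1.57% of genes and 0 members. By CPM, 0 of 10 members had groups that did not overlap, compared with 6.23% of all genes tested. The members' median ratio of highest to lowest population was 2.61, beside 2.64 over all genes tested. The log2 fold change of Ddit3 was 0.15 and went to 0.81 without old replicate 1, to 0.78 without young replicate 1, to -0.27 without old replicate 2 and to -0.26 without young replicate 2.

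The wider pathway gave the same count of 0 calls in each list. Among them, 11 other integrated stress response genes had a median log2 fold change of 0.50, 12 tRNA synthetases one of 0.03 and 15 ER chaperones one of 0.04, beside -0.01 over all genes. The smallest unadjusted p in these lists belonged to Stc2 (log2 fold change -2.39, SE 1.03), Tars (0.22, SE 0.23) and Dnajb9 (0.54, SE 0.41). Leaving out 1 population moved them to between -3.38 and -1.11 for Stc2, 0.08 and 0.36 for Tars, and 0.22 and 1.06 for Dnajb9. Next by p in the list of Stc2 were Gdf15 (3.97, SE 1.92) and Cebpb (0.815, SE 0.47). On leaving out 1 population these ran from 2.245 to 5.441 and from 0.382 to 1.372. In that list 7 of 11 estimates were positive. Cth, which makes cysteine, had a log2 fold change of -1.85 (SE 0.42, adjusted p = 0.99). Sec61b, of the ER-associated degradation list, had -0.67 (SE 0.21). It measured 899, 904 and 730 CPM in young replicates, against 548, 493 and 548 CPM in old ones. Its groups thus did not overlap, compared with 6.23% of all genes tested for which this held. In the list of p53 targets 12 of 12 genes had a positive estimate, beside 49.3% of all genes, and Pmaip1 had the smallest p (log2 fold change 2.65, SE 0.46, adjusted p = 0.66). Cdkn1a, the cell cycle inhibitor that p53 induces, measured 428, 558 and 115 CPM in young replicates, against 370, 1648 and 120 CPM in old ones, and its groups overlapped.

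Within each population, cells with Ddit3 transcript were compared with cells without, to see whether the 10 genes vary together from cell to cell. In all 6 populations Ddit3-positive cells carried more RNA of the 6 other integrated stress response members, among them Trib3 (3.67-fold), Chac1 (2.47-fold) and Nupr1 (1.9-fold), and of Herpud1 (1.97-fold), whereas Cdkn1a was nearly level (1.03-fold). Of the 9 members tested 8 rose, compared with 1.35% of all 13516 genes tested that rose, and 348 genes fell. Cells were thinned to 5000 UMIs, split by 1 or more Ddit3 UMIs against 0, and summed per population, so that each population gave a pair (edgeR, n = 6 pairs, population as block). The Ddit3-positive cells numbered 1469, 542 and 823 for young replicates, against 1208, 1097 and 803 for old ones. Ddit3 made the split and has no test here.

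Trib3 stood at 4.27, 1.74 and 3.30 CPM in Ddit3-zero cells of the young populations and at 11.2, 8.74 and 12.2 CPM in their Ddit3-positive cells. In the old populations it stood at 2.55, 4.21 and 1.81 CPM against 9.05, 16.4 and 8.62 CPM, so every positive value lay above every value of zero cells. The log2 fold change was 1.88 (SE 0.12, adjusted p = 2.3e-16, edgeR, with spread shared over genes), higher in 6 of 6 populations. The log2 ratios of the single populations ran from 1.40 to 2.35. Chac1 stood at 22.7, 11.1 and 8.06 CPM against 48.0, 25.5 and 20.6 CPM in the young, and at 8.08, 12.8 and 5.38 CPM against 19.5, 32.6 and 21.4 CPM in the old populations. Its log2 fold change was 1.30 (SE 0.08), again higher in 6 of 6. Nupr1 rose by 0.93 on the log2 scale (SE 0.06), from 55.7, 24.7 and 15.3 CPM to 113, 51.3 and 30.1 CPM in the young populations. In old replicate 2, where its level was highest, it went from 207 to 325 CPM, the smallest ratio of the 6.

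Atf4 rose by 0.50 on the log2 scale (SE 0.04) and Atf5 by 0.51 (SE 0.06), each in 6 of 6 populations. Asns rose by 0.26 (SE 0.05, adjusted p = 0.0012), with ratios close to even in young replicate 3 (0.08 on the log2 scale) and old replicate 1 (0.04). Herpud1 rose by 0.98 (SE 0.16, adjusted p = 0.038), from 59.3 to 157 CPM in old replicate 3 but from 51.1 to 67.5 CPM in old replicate 2. Xbp1 rose by 0.20 (SE 0.06, adjusted p = 0.047) and was higher in 5 of 6 populations. Hspa5 had a log2 fold change of 0.41 (SE 0.12, adjusted p = 0.19) and did not pass the test, with log2 ratios from 0.09 in young replicate 3 to 0.87 in old replicate 3; DESeq2 called it (0.42, adjusted p = 0.0341). Of the 9 members 8 were higher in 6 of 6 populations, all but Xbp1, compared with 4.3% of all genes tested. Cdkn1a had a log2 fold change of 0.04 (SE 0.04, adjusted p = 0.75) and was higher in 4 of 6 populations.

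The calls of Herpud1 and Xbp1 were lost on the 4 populations of the longer list alone and in non-cycling cells alone. They were lost also without contractile-gene cells, that is, with only cells in which 8 contractile genes gave under 0.1% of UMIs. This left 431 of the 803 Ddit3-positive cells of old replicate 3. On leaving out any of young replicates 1 and 2 and old replicates 1 and 3 both calls were lost again (adjusted p from 0.057 to 0.468 over all these settings). The call of Herpud1 was also lost without young replicate 3 (adjusted p = 0.0805), that of Xbp1 also with DESeq2 (0.0968). Where the call was lost the log2 fold change of Herpud1 was still 0.85 to 1.1, beside 0.98, with 0.92 in non-cycling cells. That of Xbp1 was 0.12 to 0.23, beside 0.20, lowest on the longer list and without young replicate 1 (0.13), and it was 0.23 in non-cycling cells. The other 6 calls held in each of those edgeR settings, and that of Asns was lost on unthinned cells (adjusted p = 0.0528). DESeq2 gave Trib3 no adjusted p. Cell cycle moved with the split: in young replicate 1 45.5% of zero and 64.1% of positive cells were in G1, in old replicate 3 41.8% and 50.7%, and the positive cells had the higher share in all 6 populations. In the sums, 16 of 43 S phase genes and 20 of 54 G2/M genes fell. In non-cycling cells alone Trib3, Chac1, Nupr1, Atf4, Atf5 and Asns were still called, while Herpud1 and Xbp1 kept estimates of the size given above.

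**Figure D2:**
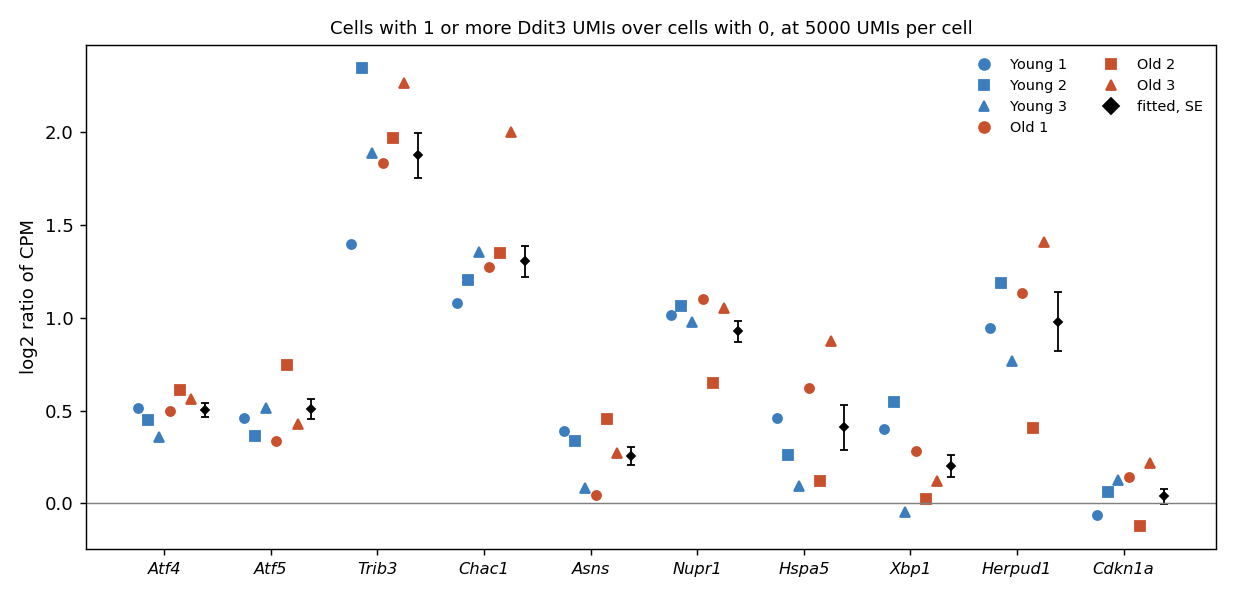
Log2 ratio of CPM in Ddit3-positive over Ddit3-zero cells (vertical axis) for each population (coloured points) with the fitted value and its SE (black diamonds). The 6 points of Trib3, Chac1, Nupr1, Atf4 and Atf5 all lie above 0, as do those of Asns, Herpud1 and Hspa5, and those of Cdkn1a lie on both sides of 0.

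In the Ddit3 split the share of genes called differed between the other lists of the pathway, and no test compared the lists. Of 11 other integrated stress response genes 8 rose and 0 fell (median log2 fold change 0.30, beside -0.02 over all genes), and those with the smallest p were Atf3 (1.31, SE 0.16), a factor induced by ATF4, Cebpb (0.22, SE 0.03) and Sesn2 (0.57, SE 0.10). Amino acid and one-carbon synthesis genes rose in 7 of 12 (median 0.35), among them Mthfd2 of the mitochondrial folate pathway (0.34, SE 0.04), Psph, the last enzyme of serine synthesis (0.46, SE 0.04) and Aldh1l2 (0.86, SE 0.12). Amino acid transporters rose in 6 of 9 (median 0.36), with Slc1a4 at 0.60 (SE 0.10), Slc7a1 at 0.36 (SE 0.06) and Slc3a2 at 0.34 (SE 0.05). Of 12 tRNA synthetases 8 rose (median 0.19), and those with the smallest p were Sars (0.33, SE 0.03), Nars (0.21, SE 0.03) and Lars (0.17, SE 0.03). Among sensors and eIF2 genes 1 of 12 rose, Ppp1r15a (0.51, SE 0.07), which brings a phosphatase to eIF2 and so ends the response.

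ER chaperones rose in 1 of 15, Dnajb9 (0.40, SE 0.09, adjusted p = 0.012), and genes of ER-associated degradation in 2 of 13, Ero1a (0.30, SE 0.06) and Selenos (0.16, SE 0.04). Called or not, 14 of the 15 and 12 of the 13 had positive estimates (medians 0.11 and 0.12), compared with 42.5% of all genes. Lonp1, a mitochondrial protease, rose by 0.23 (SE 0.05), 1 of 5 mitochondrial folding genes. Among p53 targets 2 of 12 rose, Plk2 (0.29, SE 0.05) and Mdm2 (0.18, SE 0.04). Pmaip1 had 0.22 (SE 0.07, adjusted p = 0.072). It was called without contractile-gene cells (0.34, adjusted p = 0.0041) and without old replicate 3 (0.31, adjusted p = 0.034). Of 10 immediate early and heat shock genes 1 rose, Ier2 (0.27, SE 0.06). Myod1 fell by 0.16 (SE 0.03), the single call among 8 myogenic markers, and the 8 contractile genes, a list added after the data were seen, had a median of -0.49 with 0 calls. Among the genes named from the lists, the calls of Lars, Dnajb9, Lonp1, Plk2 and Mdm2 were lost on unthinned cells (adjusted p from 0.0518 to 0.137), with log2 fold changes of 0.09, 0.29, 0.15, 0.19 and 0.16. That of Selenos was lost without old replicate 3 (0.12, adjusted p = 0.0683). In non-cycling cells Lars (0.18, adjusted p = 0.0773) and Dnajb9 (0.42, adjusted p = 0.163) were not called, though their estimates were as large as with all cells, and Sel1l was (0.29, adjusted p = 0.0229). Dnajb9 was also not called without old replicate 1 (0.41), Lonp1 on the longer list (0.18) or without young replicate 1 (0.16), and Mdm2 without contractile-gene cells (0.14).

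Correlations across cells described the same thinned cells gene by gene and carry no test. Within the 7 genes of the integrated stress response all 21 pairs were positive in all 6 populations, with a median Pearson's r of 0.07 (range of the population medians 0.06 to 0.12). The 3 pairs of ER genes were also positive in all 6 (median 0.06), and the 21 pairs between the arms had a median of 0.02, of which 10 were positive in all 6. Beside this, 8448105 pairs of 4111 genes at 20 or more CPM in every population had a median r of 0.0009 to 0.0028 and a 95th percentile of 0.0365 to 0.0423. Most thinned cells carry 0 or 1 UMI of most of these genes, and all pairs share the cells and their depth. On unthinned cells the median within the integrated stress response was 0.15. In non-cycling cells 20 of the 21 integrated stress response pairs and 2 of the 3 ER pairs were positive in all 6 populations. Their medians there were 0.08 and 0.07.

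The highest pair was Chac1 with Nupr1 (median r 0.12), followed by Ddit3 with Nupr1 (0.12), Nupr1 with Herpud1 (0.11) and Atf4 with Nupr1 (0.11). Herpud1 had r of 0.04 to 0.11 with the 7 integrated stress response genes, whereas Xbp1 had -0.00 to 0.03 with them. Hspa5 had 0.09 with Herpud1, 0.06 with Xbp1 and 0.06 with Ddit3, and at most 0.02 with the other 6 integrated stress response genes. By share of cells, Trib3 was found in 4.42%, 4.06% and 5.22% of Ddit3-positive cells of the young populations, where Ddit3-zero cells had 1.71%, 0.851% and 1.71%. The old populations had 4.39%, 7.93% and 3.61% of positive cells with Trib3, where zero cells had 1.31%, 2.05% and 0.818%.

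**Figure D3:**
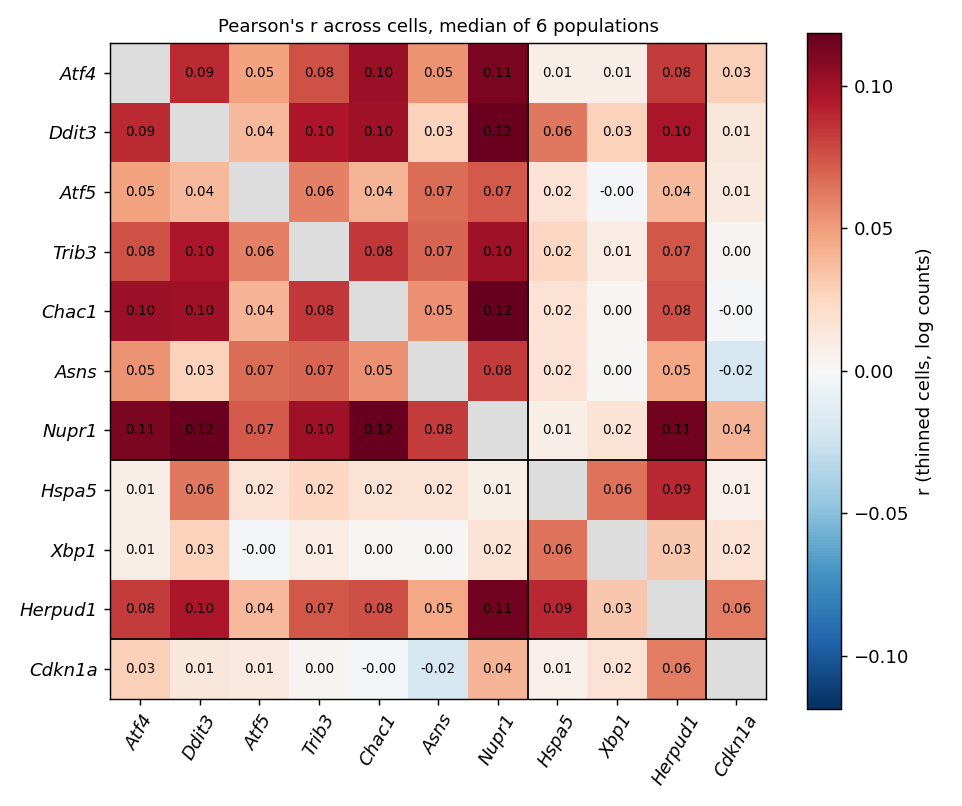
Pearson's r across cells for each pair of the 10 genes and Cdkn1a, as the median of 6 populations (colour and number), with black lines between the integrated stress response genes, the ER genes and Cdkn1a. The block of the first 7 genes is positive throughout, Herpud1 is positive with that block, and the row of Cdkn1a lies between -0.02 and 0.06.

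Among the 4111 genes at 20 or more CPM in every population, a limit that Trib3, Chac1, Ddit3, Nupr1 and Atf5 did not reach themselves, likeness to the members was ranked. Outside the gene lists, the genes whose counts followed the mean of the 7 integrated stress response genes most closely were Eif4ebp1, a repressor of translation initiation (median r 0.20 over 6 populations, 0.16 to 0.24), Eif2s2 (0.12), Eif1 (0.12), Ifrd1 (0.11) and Hmox1 (0.10). For the mean of the 3 ER genes they were Selenok (0.08), Serpinh1 (0.08), Atp2a2 (0.08), Serp1 (0.06) and Tpm1 (0.06). For single members, with list genes admitted, Hspa5 was closest to the ER chaperones Manf (0.25), Hsp90b1 (0.22) and Calr (0.16). Asns, Nupr1, Atf5 and Trib3 were each closest to Psph (0.17, 0.12, 0.09 and 0.10), and Atf4 to Mthfd2 (0.11). Herpud1 was closest to genes of the contractile apparatus, Mylpf (0.12, 0.03 to 0.27), Acta1 (0.11, 0.02 to 0.28) and Tnnc1 (0.11, 0.02 to 0.26). Each of these was highest in young replicate 2 and lowest in old replicate 1.

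Cell-to-cell spread beyond sampling was read from the variance over the mean of UMIs in thinned cells, which is 1 for pure counting. Xbp1 stood at 1.04 to 1.06, close to counting alone, and Trib3 at 1.07 to 1.17. Ddit3 ranged from 1.14 in young replicate 2 to 2.08 in young replicate 1, Hspa5 from 1.58 to 2.28, and Nupr1 from 1.4 in old replicate 1 to 3.42 in old replicate 2. This ratio depends on a gene's level, so genes are not compared by it.

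In a corresponding split, the cells with most Hspa5 UMIs, all with 2 or more, were compared with an equal number with 0, between 2111 and 3042 cells of each kind per population. Here ER chaperones rose almost as a whole, 14 of 15, while of the 9 members tested 1 rose, Xbp1, compared with 3.02% of all 12866 genes tested that rose, and 804 genes fell. Xbp1 stood at 25.7, 27.8 and 25.1 CPM in the low and 35.1, 38.3 and 30.8 CPM in the high cells of the young populations, and at 24.1, 43.0 and 35.2 CPM against 37.97, 53.1 and 48.4 CPM in the old. It was higher in 6 of 6 populations (log2 fold change 0.43, SE 0.05, adjusted p = 5.9e-08, edgeR, n = 6 pairs). Ddit3 was also higher in 6 of 6 (0.67, SE 0.16, adjusted p = 0.072), as was Herpud1 (0.58, SE 0.15, adjusted p = 0.086), and neither passed the test. In old replicate 2 Herpud1 was about level, at 52.29 CPM in low and 52.45 CPM in high cells. In all, 3 of 9 members were higher in 6 of 6 populations, compared with 5.25% of all genes tested. Without old replicate 3 Ddit3 was called (adjusted p = 0.00032), and without old replicate 2 Herpud1 was (0.00032), as it was with DESeq2 (0.0028).

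The other members had small values here: Atf4 -0.07 (SE 0.04), Asns 0.07 (SE 0.04), Chac1 0.12 (SE 0.08), Trib3 0.14 (SE 0.15), Atf5 0.02 (SE 0.06) and Nupr1 -0.15 (SE 0.15). Cdkn1a had -0.14 (SE 0.07, adjusted p = 0.30) and was called with DESeq2 (adjusted p = 0.0475) and with no filter on low counts (0.0397). Old replicate 2 was the lowest of the 6 for Atf4, Trib3, Chac1, Asns, Atf5, Herpud1 and Cdkn1a. The chaperones with the smallest p were Hsp90b1 (0.53, SE 0.03), Creld2 (0.91, SE 0.05) and Calr (0.46, SE 0.03), and the single one not called was Ppib (0.05, SE 0.03). Of 12 genes of ER-associated degradation and XBP1 targets 6 rose, with Selenos (0.33, SE 0.04), Sel1l (0.33, SE 0.05) and Sec24d (0.24, SE 0.05) first. Eif2ak3, which encodes PERK, rose by 0.41 (SE 0.10, adjusted p = 0.0077), 1 of 12 sensors and eIF2 genes; the call was lost in non-cycling cells (0.35, adjusted p = 0.222) and on the longer list (0.34, adjusted p = 0.0699). Of the same list Eif2ak4, which encodes GCN2, had 0.19 (SE 0.07, adjusted p = 0.075) and was called in 5 alternatives, among them non-cycling cells (0.36, adjusted p = 0.0415) and the longer list (0.28, adjusted p = 0.0144). Atf6, an ER stress sensor, had 0.13 (SE 0.05, adjusted p = 0.071) and was called in 4, among them without contractile-gene cells (0.24, adjusted p = 0.00043). By contrast 0 of 11 other integrated stress response genes were called, at a median of 0.00, with Atf3 (0.53, SE 0.18, adjusted p = 0.052) nearest. Amino acid transporters rose in 1 of 9, Slc7a11 (0.37, SE 0.06), amino acid synthesis genes in 1 of 12, Cth (0.31, SE 0.08, lost in 4 alternatives), and tRNA synthetases in 3 of 12, Eprs (0.16, SE 0.03), Tars (0.18, SE 0.04) and Iars (0.16, SE 0.04). The calls of Eprs, Iars and Sec24d were lost in non-cycling cells (adjusted p of 0.12, 0.0631 and 0.0523), where their log2 fold changes were 0.13, 0.20 and 0.24. The call of Iars was lost also with DESeq2 (0.0526) and without young replicate 2 (0.0738) or 3 (0.0529). Atf3 was called on unthinned cells (0.0274), with no filter on low counts (0.0235), and without young replicate 2 (0.0461), young replicate 3 (0.0426) or old replicate 2 (0.0333). Stc2 of the same list had 0.19 (SE 0.08, adjusted p = 0.097). It was called on unthinned cells (adjusted p = 0.0299), on the longer list (0.0154) and without young replicate 1 (0.0388). Of 10 immediate early and heat shock genes 2 rose, Hsph1 (0.17) and Hspa1b (0.32), and 1 fell, Junb (-0.15). Of 12 p53 targets 1 fell, Phlda3 (-0.17), and of 5 mitochondrial folding genes 2, Clpp (-0.14) and Hspe1 (-0.09). In non-cycling cells the calls of Hspa1b, Phlda3, Clpp and Hspe1 were lost (0.30, -0.14, -0.07 and -0.10). Those of Hspa1b, Clpp and Hspe1 were lost also on the longer list (adjusted p of 0.487, 0.0609 and 0.305). That of Hspa1b was lost without young replicate 1 or any 1 old replicate, and that of Clpp without old replicate 2. The call of Hspe1 was lost on unthinned cells (adjusted p = 0.0644) and on leaving out any population but young replicate 2. The call of Junb was lost without contractile-gene cells (-0.09) and without young replicate 2 (-0.12). Hspd1 of the mitochondrial list had 0.08 (SE 0.03, adjusted p = 0.10). It was called higher on the longer list (0.14, adjusted p = 0.00057), on unthinned cells, with no filter on low counts and without old replicate 1. Cells in G1 were 43.9% of low and 58.7% of high cells in young replicate 1 and 64.2% and 60.3% in old replicate 2, with no common direction over the populations. In the sums 11 of 43 S phase and 6 of 54 G2/M genes fell, and the 8 contractile genes had a median of -0.48 with 0 calls; their part in this split was tested only in the settings with non-cycling cells and without contractile-gene cells.

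The relation to Cdkn1a was tested by comparing equal numbers of cells at the top and the bottom of the order by Cdkn1a UMIs in each population, the same numbers as for Hspa5 and thinned as before. Of the 10 members 0 were called, and of 12853 genes 0%, with 2667 genes at an unadjusted p under 0.05 (edgeR, n = 6 pairs). DESeq2 called 4.13% of genes and 0 members, and without old replicate 3 edgeR called 451 genes and 0 members. In old replicate 3, 18.2% of cells had a Cdkn1a UMI, so its Cdkn1a-high cells include some with 0 UMIs. Of the 10 members 1, Ddit3, was higher in 6 of 6 populations, compared with 7.05% of all genes tested, at a log2 fold change of 0.19 (SE 0.08, adjusted p = 0.21), which was 0.12 without old replicate 1 and up to 0.23 without another population.

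Herpud1 had the largest estimate, 0.53 (SE 0.18, adjusted p = 0.18). It stood at 25.3, 24.7 and 29.9 CPM in Cdkn1a-low and 37.9, 60.3 and 29.7 CPM in Cdkn1a-high cells of the young populations, and at 20.7, 41.7 and 69.1 CPM against 29.4, 77.3 and 66.6 CPM in the old. Young replicate 3 and old replicate 3, the populations with the lowest Cdkn1a, were about level, and the other 4 were higher in Cdkn1a-high cells. Nupr1 had 0.38 (SE 0.19, adjusted p = 0.31), with young replicate 2 going from 19.9 to 48.1 CPM; it was 0.20 without that population and up to 0.48 without another. Contractile genes moved with this split: the 8 had a median log2 fold change of 4.33, with 0 calls. Without cells in which those genes gave 0.1% or more of UMIs, an alternative chosen after seeing the data, Herpud1 had 0.26 and Nupr1 0.18. Asns had -0.17 (SE 0.07, adjusted p = 0.21), lower in 5 of 6 populations, was at -0.11 without young replicate 1 and at 0.09 in non-cycling cells. Cells in G1 were 46.5%, 30.6% and 19.9% of Cdkn1a-low cells of the young populations, where Cdkn1a-high cells had 53.1%, 59.4% and 19.3%. The old populations had 35.4%, 45.1% and 40.5% of low cells in G1, where high cells had 29.5%, 89.3% and 50.1%. The share was thus higher in Cdkn1a-high cells in 4 populations, lower in old replicate 1 and about level in young replicate 3. In the sums 41 of 43 S phase and 51 of 54 G2/M genes had negative estimates. The part of the cell cycle in these values was not tested beyond the setting with non-cycling cells alone.

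Whether this relation differed between old and young was tested by the interaction of group and Cdkn1a class. The UMIs that mark a class differ between populations, as given above. Of the 10 members 0 were called, and of all genes tested 0%; 183 genes had an unadjusted p under 0.05. DESeq2 was not run on the interaction. Trib3 had the smallest p among the members (old minus young difference of log2 fold changes 1.05, SE 0.35, unadjusted p = 0.016, adjusted p = 1). Young replicates had log2 ratios of -0.64, -0.23 and -0.72 for Trib3, against -0.03, 1.00 and 0.41 for old ones, and those of Chac1 were -0.23, -0.23 and -0.25 against -0.18, 0.73 and 0.28. In the Cdkn1a split itself, with no interaction, 12 of 12 p53 targets had positive estimates (median 0.32), beside 50.6% of all genes, and 0 of the 12 were called, with Eda2r (0.92, SE 0.15), Ccng1 (0.32, SE 0.07) and Trp53inp1 (0.89, SE 0.19) at the smallest p, each at an adjusted p of 0.13. Of the 12 amino acid and one-carbon synthesis genes that could be tested 0 were called and 2 had positive estimates (median -0.15), with Phgdh at -0.28 (SE 0.05) and Psat1 at -0.28 (SE 0.06). Sesn2, which p53 and ATF4 both induce, had 0.55 (SE 0.12), and these 3 genes too had an adjusted p of 0.13. At the same adjusted p, Dnajb9, an ER chaperone, had 0.45 (SE 0.10) and Hspd1, of mitochondrial folding, -0.21 (SE 0.05). Estimates were positive for 9 of 11 other integrated stress response genes and 9 of 10 immediate early and heat shock genes. So were those of 9 of 13 genes of ER-associated degradation and 5 of 15 ER chaperones. Amino acid transporters had 2 of 9 positive (median -0.08) and tRNA synthetases 3 of 12 (median -0.05). All these lists had 0 calls.

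**Figure D4:**
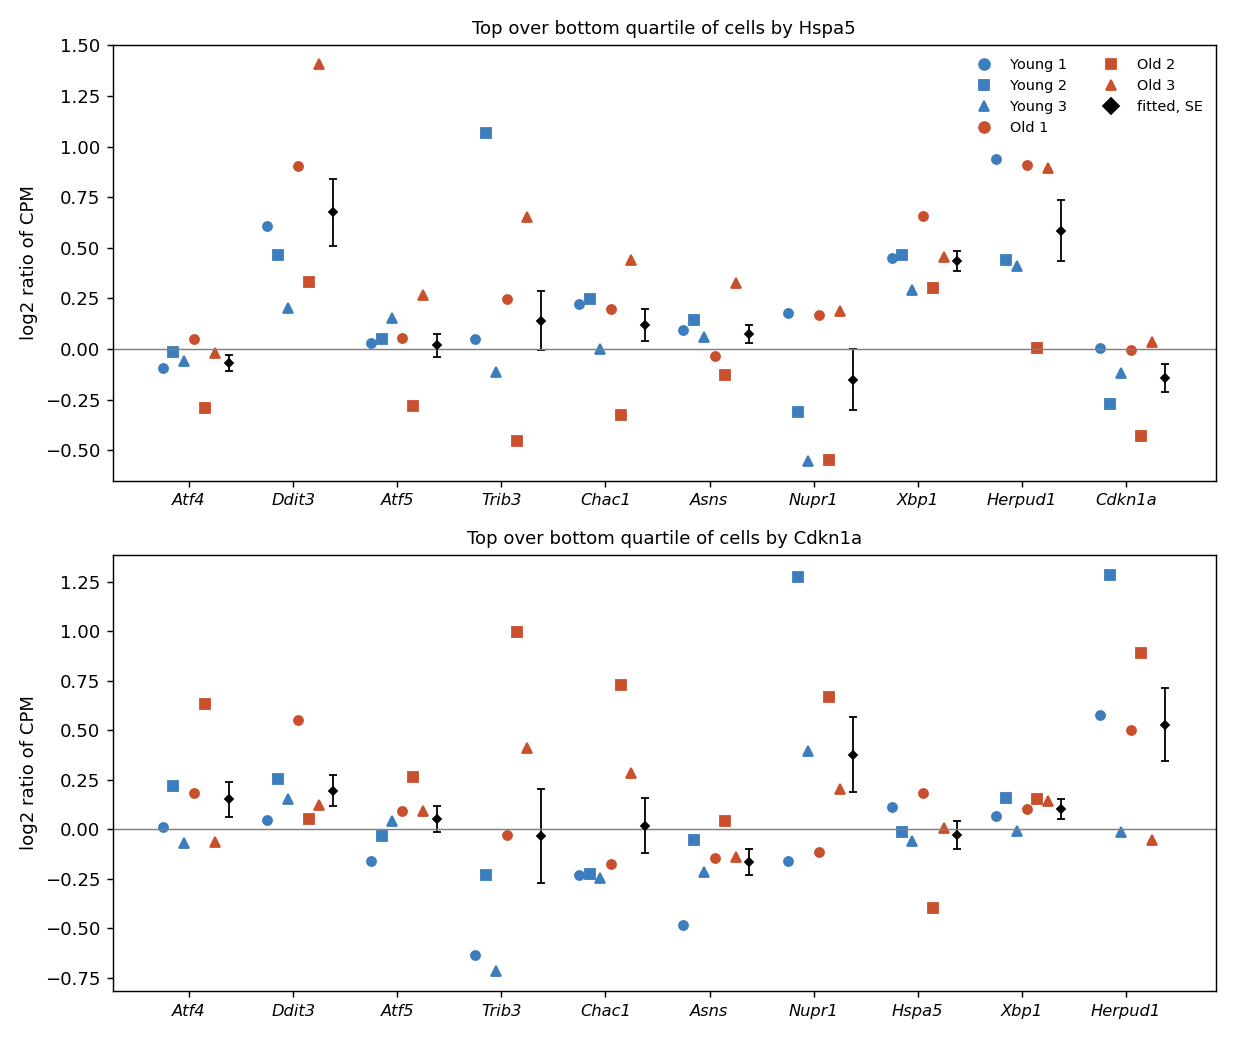
Log2 ratio of CPM (vertical axes) in high over low cells, split by Hspa5 (upper panel) and by Cdkn1a (lower panel), for each population (coloured points) with the fitted value and its SE (black diamonds). In the upper panel all 6 points of Xbp1, Ddit3 and Herpud1 lie above 0, with Herpud1 at 0.004 in old replicate 2. In the lower panel Herpud1 and Nupr1 are spread by young replicate 2. Trib3 and Chac1 are higher there in old replicates 2 and 3 than in the young populations.

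Across the 6 populations 0 of 10 members passed the test of a correlation with Cdkn1a. Pearson's r of log2 CPM was highest for Atf5 (r = 0.64, exact permutation p = 0.17; Spearman's rho 0.60, exact p = 0.24) and Chac1 (r = 0.57, exact permutation p = 0.25; rho 0.66, exact p = 0.17). Adjusted over the 10 genes the lowest p was 0.75 for r and 0.60 for rho. Without the 2 populations farthest from the median of Cdkn1a, young replicate 3 and old replicate 2, r went to -0.17 for Atf5 and 0.66 for Chac1. For Xbp1 it went from 0.51 to -0.94, for Nupr1 from 0.55 to -0.65 and for Herpud1 from 0.07 to -0.82, so these relations rest on those populations. Within the gene lists, of 2 and 4 populations, no correlation was computed.

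Cells with contractile transcripts, which occur at different shares in the populations, differed from other cells in some of the 10 genes, given as a description. Cells in which Acta1, Mylpf and 6 other contractile genes made up 1% or more of UMIs numbered 167, 599 and 48 for young replicates, against 28, 274 and 2640 for old ones, 0.283% of cells in old replicate 1 and 21.7% in old replicate 3. Beside cells under 0.1%, Herpud1 was higher in them in 6 of 6 populations, by 1.88-fold to 6.45-fold. It stood at 86.2, 159 and 87.5 CPM against 24.5, 24.6 and 30.8 CPM in the young, and at 71.4, 130 and 96.1 CPM against 26.7, 49.6 and 51.1 CPM in the old populations. Nupr1 was also higher in 6 of 6, by 1.13-fold in old replicate 3 to 8.08-fold in young replicate 3, as were Xbp1 (1.11-fold to 2.06-fold) and Atf4 (1.18-fold to 2.05-fold). These 4 of 10 members stand beside 8.38% of all 15064 genes that were higher in 6 of 6. The list of contractile genes was added after the data were seen. It holds Mylpf and Acta1, which were among the genes most correlated with Herpud1 across these cells. The values of Herpud1 here thus restate that correlation and are no separate support for it. Ddit3 was lower in 6 of 6, the single such member beside 29.0% of all genes, at 0.325 of the level of other cells in old replicate 2 and 0.973 in young replicate 2, though on as few as 3 UMIs in young replicate 3 and 4 in old replicate 1. Hspa5 was higher in 3 and lower in 3. Cdkn1a was higher in 6 of 6, by 2.47-fold to 13.9-fold. These cells were mostly in G1, from 65.9% in old replicate 3 to 96.0% in old replicate 2. Their part in the differences of Herpud1 between populations was not tested beyond a setting that left out every cell at 0.1% or more. Among thinned cells that limit takes 53.5% of old replicate 3, 19.7% of young replicate 2 and 0.586% of old replicate 1. In that setting the old over young log2 fold change of Herpud1 was 0.52, beside 0.52 with all cells. With all cells, leaving out 1 population gave 0.30 (without young replicate 3) to 0.90 (without old replicate 1), and the value also moved by over 1.5 times without young replicate 1 or old replicate 3.

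**Figure D5:**
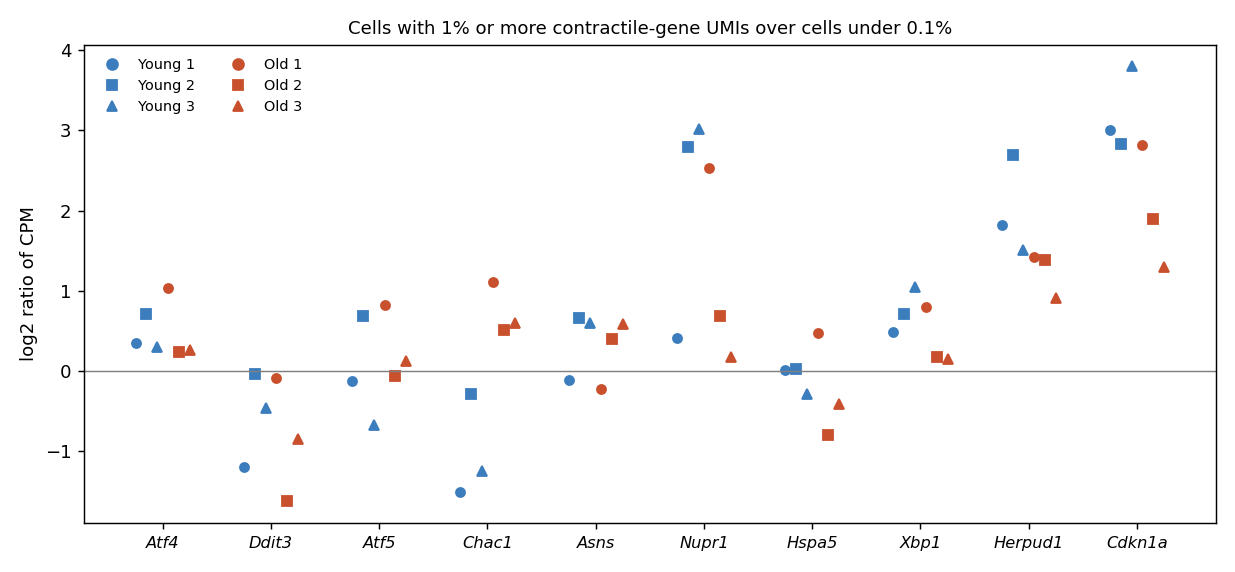
Log2 ratio of CPM (vertical axis) in cells with 1% or more contractile-gene UMIs over cells under 0.1%, for each population (coloured points), for 9 of the 10 genes and Cdkn1a; Trib3 is left out for low counts. All 6 points of Herpud1, Nupr1, Xbp1, Atf4 and Cdkn1a lie above 0 and all 6 of Ddit3 below it.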

How the data were processed

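The authors deposited raw UMI counts per gene and cell barcode, with no normalization, made with Cell Ranger 7.0.0 (young replicate 1, old replicate 1; 21849 features) or 7.2.0 (the other 4; 32285 features), per the file headers. The submitters' processing notes name mm10 (GRCm38) and Cell Ranger 7.2.0 alone. The 21485 identifiers shared by both lists were used. Ddit3 was matched by identifier, since a second overlapping entry has its symbol and 0 counts.

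Barcodes with fewer than 1000 UMIs, fewer than 500 genes or at least 15% mitochondrial UMIs were removed. No doublet caller was run, and an alternative left out cells over 2 times the median depth. For shares, splits, correlations and phases (scanpy 1.11.5) each cell was thinned to 5000 UMIs, which left out 536 young and 816 old cells. Counts were summed per population, or per population and class of cells, and edgeR 4.0.16 (R 4.3.3) was used for tests (TMM, filterByExpr, robust quasi-likelihood test, two-sided, Benjamini-Hochberg adjustment over all genes, 0.05), with a term for the gene list (old against young) or the population (splits). High and low cells by Hspa5 or Cdkn1a are the outer quartiles; ties at their edges were broken at random. The tests were checked on simulated data, in which that of old against young missed most of the changes put in. A lack of calls in that comparison therefore does not show a lack of change. DESeq2 1.42.0 and other settings were alternatives. The SE is the absolute log2 fold change over the root of F. Gene positions used GENCODE vM21 and promoters RefSeq, both GRCm38.

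The 10 members and all lists were chosen with earlier results of these data known. From the lists reported in a comparison the text names up to 3 genes with the smallest unadjusted p, and outside the lists the 5 genes most correlated with each arm. Not every list is reported in every comparison. The labels number populations as biological replicates without naming their animals, so p-values refer to these populations and not to mice at large. The quasi-likelihood test of edgeR estimates the spread of a gene partly from all genes. Its very small p-values, such as that of Trib3 in the Ddit3 split, therefore do not rest on the spread of that gene between these populations alone. The ratios of the single populations are the direct record of that spread.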

Additional observations from a re-analysis of the deposited data

How the results depend on the processing

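Old against young, the count of genes called was 1 and became 237 with DESeq2, 0 without the gene list term, 0 on the longer list alone, and 0 to 3 on leaving out 1 population (0 without young replicate 1 or old replicate 1, 3 without young replicate 3). Same-numbered populations had correlations of 0.383, 0.217 and -0.063 of their deviations, so the numbers were not taken as pairs; with a replicate block 1 gene was called and Trib3 went to -0.018. Log2 fold changes also turned sign for Ddit3 (-0.268) and Trib3 (-0.001) without the list term and for Asns in non-cycling cells (0.125). Leaving out 1 population gave -0.124 to 0.263 for Atf4, -0.268 to 0.806 for Ddit3, -0.468 to 0.455 for Trib3, -0.189 to 0.019 for Asns, -0.112 to 0.517 for Iars, -0.054 to 0.607 for Lonp1, -3.585 to 0.505 for Jun and -0.926 to 1.474 for Cdkn1a. Differences in shares of cells ran from -2.008 to 4.145 percentage points for Ddit3, -0.382 to 0.521 for Trib3 and -2.256 to 3.838 for Asns.

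In the Cdkn1a split the count of 0 became 531 with DESeq2, 1 on unthinned cells, 156 in non-cycling cells, 4 without contractile-gene cells and 0 to 451 on leaving out 1 population (451 without old replicate 3). Trib3 turned to 0.177 on unthinned cells, 0.015 in non-cycling cells, 0.052 without contractile-gene cells and 0.115 on the longer list. In non-cycling cells Chac1 had -0.010, Asns 0.090, Hspa5 0.010 and Cars 0.130. Without contractile-gene cells Xbp1 had -0.008 and Lonp1 0.047, and Lonp1 had 0.016 on the longer list. Leaving out 1 population gave -0.278 to 0.120 for Trib3, -0.134 to 0.072 for Chac1, -0.071 to 0.046 for Hspa5 and -0.036 to 0.012 for Lonp1. The test of the difference between old and young called 0 to 12 genes on leaving out 1 population, 12 without old replicate 2. Its estimates turned in non-cycling cells for Asns (-0.254) and Xbp1 (-0.222), and without contractile-gene cells for Nupr1 (0.161), Hspa5 (0.000) and Herpud1 (0.278). They ran from -0.055 to 0.214 for Ddit3, -0.565 to 0.180 for Nupr1, -0.207 to 0.082 for Hspa5 and -0.503 to 0.183 for Herpud1 on leaving out 1 population.

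In the Ddit3 split 234 genes were called with DESeq2, 1153 with no filter on low counts, 291 in non-cycling cells and 314 to 748 on leaving out 1 population, against 531 with all; 314 came without old replicate 2. Hspe1 (0.031) and Egr1 (-0.059) turned on unthinned cells and Cdkn1a (-0.042) in non-cycling cells. In the Hspa5 split 684 genes were called with DESeq2, 1992 on unthinned cells, 376 in non-cycling cells and 720 to 1031 on leaving out 1 population, against 1192 with all; the lowest count came without young replicate 3. Atf5 turned on unthinned cells (-0.004) and in non-cycling cells (-0.078), as did Mdm2 in the latter (0.003). Leaving out 1 population gave -0.248 to 0.020 for Nupr1 and -0.028 to 0.115 for Atf5. The median r was 0.146 within the integrated stress response, 0.113 within the ER genes, 0.0526 between them and 0.031 with Cdkn1a on unthinned cells. The causes of these changes were not tested.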
